A study of Mus musculus with 24 samples.

Results

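The set described here holds 46 genes of the dividing cell, of which 24 serve DNA replication and 22 serve mitosis. The genes were chosen by name and role, by a rule that uses no measured value, although earlier results of these libraries were known when the set was drawn up. All 46 were found among the 23879 gene symbols of each library. Transcript levels had been measured by paired-end sequencing of polyA RNA from the marrow endothelium and the marrow stroma of C57BL/6J mice. The 24 libraries make up 8 groups with 3 libraries each. Both cell types were sampled in vitro under the title Akt1 (here called culture), in a co-culture series without added cells (alone) and with hematopoietic stem and progenitor cells (with HSPC), and in vivo. All 18 titles of cultured libraries carry Akt1, the name of a kinase that acts downstream of growth factors, and no label says what was done to it. The 6 in vivo titles lack that name, so culture and the treatment behind the name cannot be told apart in any comparison with in vivo libraries. No label gives an age, a sorting scheme, a clone or pooling of animals. The column headers of the in vivo endothelium carry the word Young.

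A dividing cell licenses its replication origins in G1 phase, when Cdc6 and Cdt1 load the ring-shaped Mcm2-7 complex onto DNA. Cdc45 and the GINS complex then turn that ring into a working helicase, and polymerases follow it on the sliding clamp PCNA. Genes of this program are activated by E2F factors late in G1, whereas mitotic genes are activated later, through the MuvB complex, B-Myb and FoxM1. Mitotic transcripts are therefore known as a marker of cells in G2 and mitosis. In the adult marrow most endothelial and stromal cells are known to divide seldom, whereas many blood progenitors divide often.

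Levels are given in FPKM, which adjust the fragments of a gene for its length and for the size of the library. Differences are on the log2(FPKM + 1) scale, on which the change of a gene at a low level is understated. A gene is said to have risen or fallen where limma gave an adjusted p under 0.05 (Benjamini-Hochberg, across every gene tested). Whether libraries that share a group are separate cultures or animals is not stated, so each p-value measures only how far these libraries spread, which may be technical variation. In bulk RNA, fewer dividing cells and less RNA of these genes per cell cannot be told apart.

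Library totals ran from 1421447 to 1808592 FPKM, and 12447 to 13961 genes reached 1 FPKM in a library. The cell type labels matched their markers. The 8 endothelial markers, Pecam1 and Cdh5 among them, summed to 8324 to 18299 FPKM in endothelial libraries and to 10.8 to 369 FPKM in stromal ones. The 8 stromal markers, Col1a1 and Pdgfra among them, summed to 3661 to 166115 FPKM in stroma and to 260 to 3078 FPKM in endothelium. In culture these sums lay closest, at 3661 to 10919 FPKM in stroma and 288 to 3078 FPKM in endothelium. The 369 FPKM of endothelial markers was also in a library of cultured stroma. Within groups the libraries correlated at 0.995 to 0.998 in the 6 groups outside culture. In culture the range was 0.962 to 0.972 for endothelium and 0.954 to 0.993 for stroma. The libraries labelled culture stood apart in a pair of ways. Replicate 1 of each cell type had the highest mean level of the set. Replicates 2 and 3 of cultured endothelium and replicate 3 of cultured stroma carried 1006 to 1249.8 FPKM of Xist, which was at most 2.35 FPKM in every other library. Counts without some of these libraries are given beside the results. In endothelium Akt1 RNA was at 1080 to 2337 FPKM in culture and 1091 to 1128 FPKM alone. With HSPC it was at 1765 to 1866 FPKM and in vivo at 433 to 470 FPKM. In stroma it was at 522 to 698, 615 to 649, 462 to 520 and 234 to 284 FPKM in the same order. The part of Akt1 in the levels of the set was not tested.

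All 46 genes reached 1 FPKM in each of the 24 libraries, none was listed at 0, and all 46 were tested in each comparison. In each cell type the group called culture held the highest mean of both kinds of gene. The mean log2(FPKM + 1) over the 22 mitotic genes was 7.31 ± 0.52 (SD, n = 3) for cultured endothelium, 5.84 ± 0.11 without added cells, 5.40 ± 0.06 with HSPC and 3.67 ± 0.29 in vivo. For the 24 replication genes the same means were 6.40 ± 0.40, 5.72 ± 0.13, 5.45 ± 0.05 and 4.58 ± 0.16. In endothelium both kinds of gene thus stepped down in the same order, and the mitotic mean covered the wider range. In stroma the mitotic mean was 6.96 ± 0.58 in culture, 4.45 ± 0.21 without added cells, 2.99 ± 0.24 with HSPC and 5.37 ± 0.14 in vivo. The replication mean in stroma was 6.42 ± 0.27, 4.87 ± 0.11, 4.09 ± 0.04 and 5.96 ± 0.09 in the same order. Stroma in vivo therefore lay above the stroma of the co-culture series, unlike endothelium in vivo, which lay lowest of its groups.

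The replication mean minus the mitotic mean, taken within a library, ran from -1.08 to -0.76 in cultured endothelium and from -0.89 to -0.35 in cultured stroma. It ran from -0.15 to -0.07 in endothelium alone and from 0.04 to 0.06 with HSPC. In endothelium in vivo it ran from 0.72 to 1.08. In stroma alone it ran from 0.25 to 0.52, with HSPC from 0.96 to 1.37, and in vivo from 0.54 to 0.63. Mitotic genes thus lay above replication genes in the 6 culture libraries and the 3 of endothelium alone, and below them in the other 15. Highest and lowest groups followed the same division. Mean FPKM was highest in cultured endothelium for 21 mitotic and 11 replication genes, in cultured stroma for 1 and 10, and in stroma in vivo for 3 replication genes, Cdc6, Cdt1 and Mcm7. It was lowest in stroma with HSPC for 21 mitotic and 19 replication genes.

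**Figure D1:**
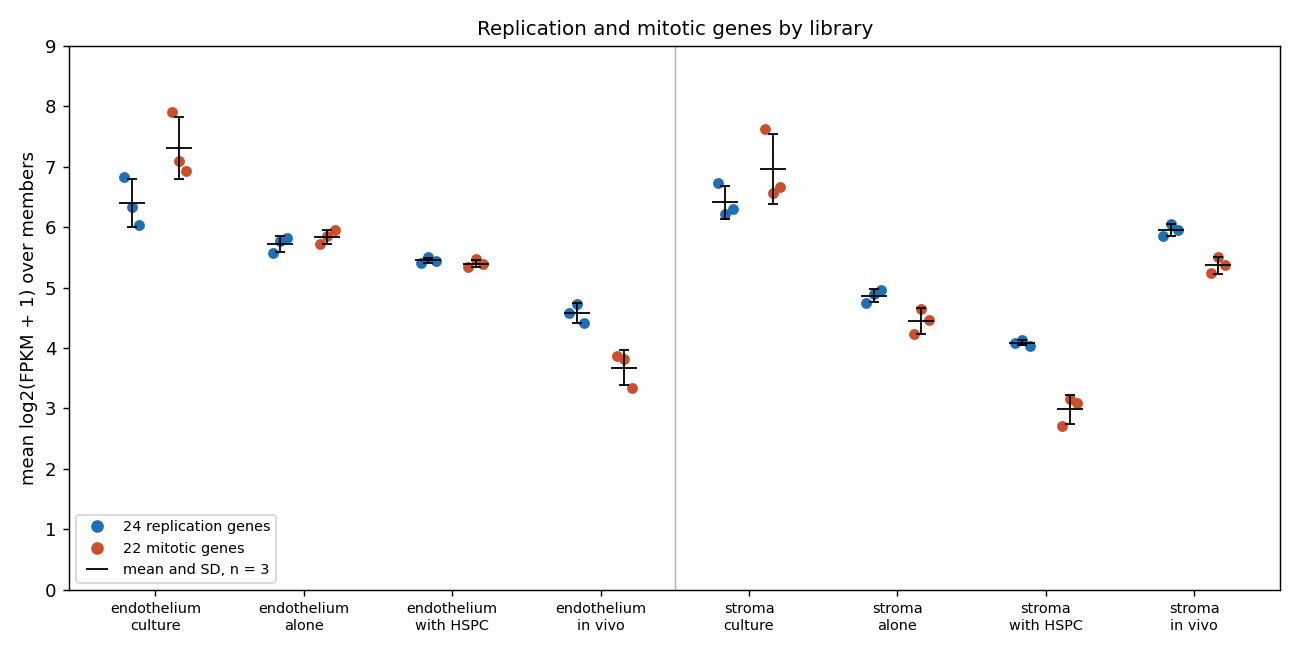
Mean log2(FPKM + 1) over the 24 replication genes (blue) and the 22 mitotic genes (orange) in each of the 24 libraries, with the mean and SD of each group (n = 3). Mitotic genes lay above replication genes in culture (7.31 against 6.40 in endothelium) and below them in stroma with HSPC (2.99 against 4.09).

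Replicate 1 was the highest culture library in both cell types. Its mitotic mean was 7.90 in endothelium against 7.09 and 6.94 in replicates 2 and 3. In stroma it was 7.62 against 6.57 and 6.67. The median SD of a member's log2 level was 0.48 in cultured endothelium and 0.46 in cultured stroma, and 0.08 to 0.25 in the other groups.

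**Figure D2:**
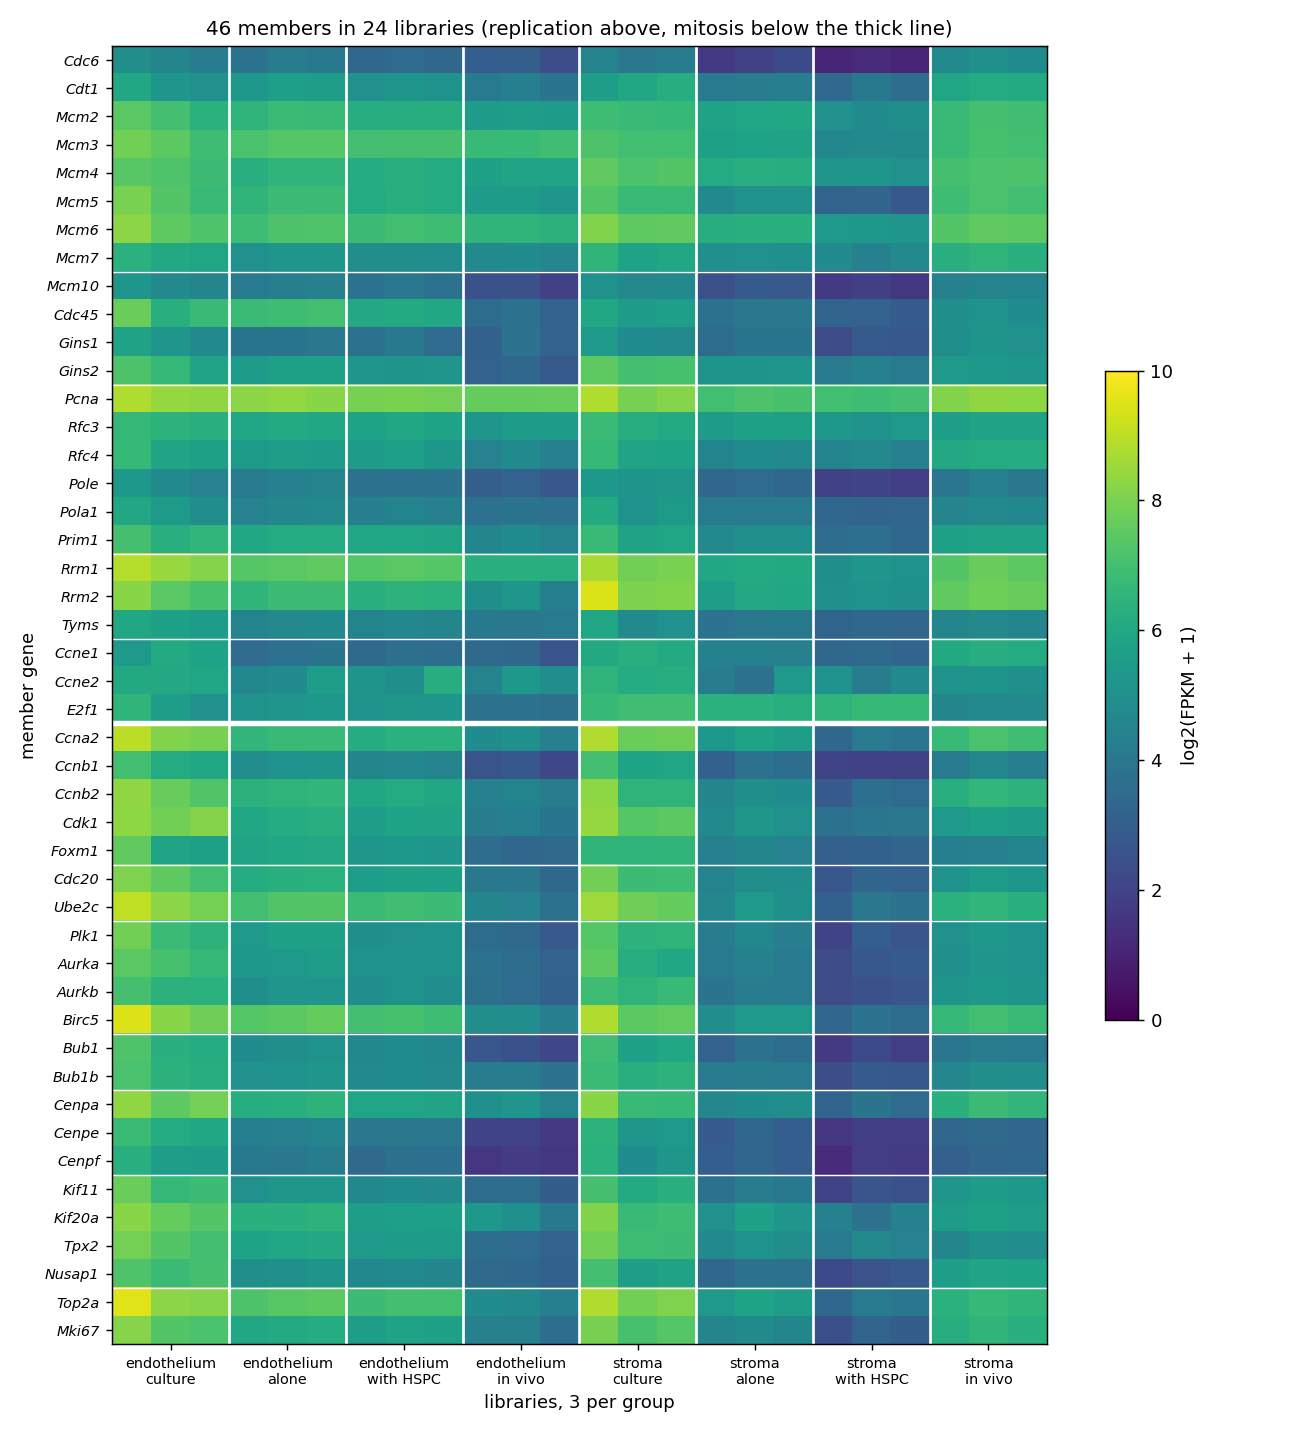
Level of each of the 46 genes, as log2(FPKM + 1), in each library; rows are ordered by role, with replication above and mitosis below the thick line, and columns by group. The mean over the members was highest in the first library of each culture group, although single rows such as Ccne1 were lowest there within their culture group. The mitotic rows were darkest in stroma with HSPC and in endothelium in vivo.

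The licensing genes were measured first among the replication genes. Cdc6, which brings the helicase ring to the origin, was, in endothelium, at 29.4, 22.9 and 17.3 FPKM in culture, against 12.9, 17.4 and 15.3 without added cells, 9.46, 10.2 and 9.12 with HSPC and 6.87, 7.15 and 4.20 in vivo. In stroma Cdc6 was at 21.3, 15.2 and 18.1 FPKM in culture, against 2.23, 2.83 and 3.78 without added cells, 1.13, 1.33 and 1.03 with HSPC and 25.6, 31.8 and 27.9 in vivo. Stroma in vivo held the highest Cdc6 of any group except for an overlap with cultured endothelium, and the 4 groups of stroma did not overlap each other. Cdt1, its partner in loading, was, in endothelium, at 60.5, 36.9 and 32.4 FPKM in culture, against 39.4, 48.4 and 47.6 without added cells, 32.5, 37 and 32.8 with HSPC and 16.2, 18.98 and 13.4 in vivo. In stroma Cdt1 was at 47.7, 62.2 and 74.1 FPKM in culture, against 16.4, 17.2 and 18.4 without added cells, 9.60, 15.5 and 11.3 with HSPC and 58.8, 69.6 and 68.7 in vivo. Cultured and in vivo stroma overlapped for Cdt1, and both lay well above stroma alone and with HSPC.

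Mcm3, Mcm5 and Mcm6 are subunits of the Mcm2-7 ring itself. Mcm3 in endothelium was at 236, 177 and 117 FPKM in culture, against 138, 163 and 166 without added cells, 127, 131 and 130.1 with HSPC and 105, 105 and 121 in vivo, and culture overlapped each other endothelial group. In stroma Mcm3 was at 145, 125 and 126 FPKM in culture, against 49.9, 54.1 and 53.95 without added cells, 24.2, 25.7 and 25.7 with HSPC and 109.7, 135 and 125 in vivo, with culture and in vivo overlapping. Mcm3 was lower in both groups of the stromal co-culture series than in the other stromal groups. Mcm5 was, in endothelium, at 249.8, 160.1 and 105 FPKM in culture, against 91.05, 114 and 114 without added cells, 70.2, 77.7 and 70.2 with HSPC and 45.1, 45.4 and 35.7 in vivo. In stroma Mcm5 was at 154, 105 and 109 FPKM in culture, against 25.7, 33.7 and 32.8 without added cells, 8.26, 8.47 and 5.78 with HSPC and 119, 139.9 and 125 in vivo. Stroma with HSPC was the lowest group by a wide margin, and cultured and in vivo stroma overlapped. Mcm6, the licensing gene with the highest mean level, was, in endothelium, at 308, 181 and 152 FPKM in culture, against 119, 146 and 152 without added cells, 116, 125 and 119 with HSPC and 91.2, 92 and 83.8 in vivo. In stroma Mcm6 was at 274, 183 and 189.7 FPKM in culture, against 74.5, 80.2 and 81.4 without added cells, 40.7, 39.7 and 35.6 with HSPC and 161, 186 and 179 in vivo. Endothelium in vivo lay below its other groups for Mcm6. Over the 24 libraries Mcm2 ran from 26.9 to 175 FPKM, Mcm4 from 32.2 to 189 FPKM and Mcm7 from 19.8 to 93.5 FPKM, each with its lowest group in stroma with HSPC.

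Cdc45 and Gins2 belong to the complex that activates the ring. Cdc45 was, in endothelium, at 212, 77.6 and 109 FPKM in culture, against 112, 118 and 123 without added cells, 65.2, 67.5 and 60.8 with HSPC and 10.5, 12.7 and 7.74 in vivo. In stroma Cdc45 was at 61.5, 44.8 and 49.02 FPKM in culture, against 12.5, 14.9 and 15.2 without added cells, 8.43, 7.87 and 6.47 with HSPC and 30.6, 33.03 and 28.4 in vivo. The cell types did not overlap for Cdc45 in any of the 4 settings, with endothelium higher in culture, alone and with HSPC and stroma higher in vivo. Gins2 was, in endothelium, at 146, 99.5 and 55.7 FPKM in culture, against 45.6, 51.2 and 52.04 without added cells, 36.8, 35.5 and 35.9 with HSPC and 7.94, 9.29 and 6.19 in vivo. In stroma Gins2 was at 183, 127 and 134 FPKM in culture, against 35.5, 35.3 and 37.5 without added cells, 16.5, 20.2 and 16.8 with HSPC and 40.5, 39.3 and 37.7 in vivo. For Gins2 no 2 groups of a cell type overlapped, and its level in endothelium in vivo was the lowest of all. Mcm10, which helps to start the helicase, ran from 2.11 to 37.2 FPKM and Gins1 from 3.99 to 52.8 FPKM over the 24 libraries.

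Promoters are shown for Cdc45, Cdc6 and Mcm5, which had the largest falls with HSPC in endothelium among the replication genes with a listed window. Cdc6 and Mcm5 hold letters of the E2F motif and Cdc45 holds none. RefSeq windows of GRCm38.p6, from 250 bases before to 50 after the start, were found for 36 of the 46 genes, in 37 windows. The motifs searched on both strands were E2F (TTTCCCGC, TTTGGCGC or TTTCGCGC), the cell cycle homology region or CHR (TTTGAA or TTCGAA), which binds MuvB, and CCAAT, the box of the factor NF-Y. No motif contains another, and the pair of E2F matches in Mcm5 overlap each other on opposite strands. Capitals mark the matches. The windows are chr11:98907901-98908200 on the plus strand for Cdc6, chr8:75109259-75109558 on the plus strand for Mcm5 and chr16:18811923-18812222 on the minus strand for Cdc45.
Cdc6: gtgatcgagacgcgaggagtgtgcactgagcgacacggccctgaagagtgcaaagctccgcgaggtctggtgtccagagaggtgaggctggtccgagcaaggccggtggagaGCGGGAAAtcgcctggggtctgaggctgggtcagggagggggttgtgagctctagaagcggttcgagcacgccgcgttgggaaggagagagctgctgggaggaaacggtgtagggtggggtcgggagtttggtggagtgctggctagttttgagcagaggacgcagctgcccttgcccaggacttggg
Mcm5: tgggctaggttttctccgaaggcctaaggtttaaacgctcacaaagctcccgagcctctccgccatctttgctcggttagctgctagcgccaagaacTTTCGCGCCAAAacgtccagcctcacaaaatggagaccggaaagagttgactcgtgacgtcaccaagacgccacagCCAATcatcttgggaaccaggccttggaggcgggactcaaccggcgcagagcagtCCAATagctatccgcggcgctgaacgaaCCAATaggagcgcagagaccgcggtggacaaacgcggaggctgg
Cdc45: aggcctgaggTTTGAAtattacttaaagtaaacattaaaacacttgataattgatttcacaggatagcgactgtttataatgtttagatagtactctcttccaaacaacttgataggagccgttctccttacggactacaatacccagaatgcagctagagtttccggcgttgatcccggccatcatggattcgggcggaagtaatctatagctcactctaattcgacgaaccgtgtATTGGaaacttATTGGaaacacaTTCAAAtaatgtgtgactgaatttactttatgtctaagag

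Of the 20 windows of replication genes, 8 (40.0%) held an E2F motif, against 1.84% of all 32851 windows in the table. CCAAT was in 14 of the 20 (70.0%), against 37.4% of all windows, and CHR in 4 (20.0%), against 19.2%. The shares with E2F letters and with CCAAT thus lay above those of all windows, and that with CHR letters lay close to it. In Cdc6 the match began 138 bases before the start, and the matches of Mcm5 began 153 and 149 bases before it.

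Pcna, the clamp that holds polymerases on DNA, had the highest level of the clamp and polymerase genes. It was, in endothelium, at 442, 339 and 322 FPKM in culture, against 303, 331 and 297 without added cells, 247, 252 and 238 with HSPC and 198, 196 and 205 in vivo. In stroma Pcna was at 446, 248 and 292 FPKM in culture, against 124, 146 and 134 without added cells, 123, 117 and 129 with HSPC and 276, 326 and 318 in vivo. For Pcna, stroma alone and with HSPC overlapped at the low end, and in vivo stroma overlapped culture. The clamp loaders Rfc3 and Rfc4 ran from 32.9 to 112 FPKM and from 19.4 to 104 FPKM. The polymerase genes ran from 2.60 to 39.2 FPKM for Pole, the leading strand polymerase, from 8.48 to 67.5 FPKM for Pola1 and from 9.50 to 131 FPKM for Prim1, which together start new strands.

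Rrm1 and Rrm2 are the subunits of ribonucleotide reductase, which makes the DNA building blocks. Rrm1 was, in endothelium, at 474, 349 and 280.2 FPKM in culture, against 162, 173 and 187 without added cells, 164, 172 and 162 with HSPC and 80.5, 80.8 and 76.2 in vivo. In stroma Rrm1 was at 409, 234 and 252 FPKM in culture, against 60.4, 68.8 and 65.9 without added cells, 30.5, 37.4 and 32.9 with HSPC and 161, 202 and 178 in vivo. Adding HSPC left the endothelial values of Rrm1 overlapping, whereas the stromal values were separate and lower with HSPC. Rrm2, the subunit made in S phase, was, in endothelium, at 301, 172 and 134 FPKM in culture, against 92.4, 114 and 114 without added cells, 76.3, 88.2 and 82.8 with HSPC and 30.8, 37.5 and 19.1 in vivo. In stroma Rrm2 was at 691, 262 and 276 FPKM in culture, against 47.6, 65.01 and 61.2 without added cells, 31.3, 33.9 and 31.4 with HSPC and 185, 223 and 201 in vivo. No 2 groups of a cell type overlapped for Rrm2, and replicate 1 of cultured stroma was the highest library by far. Tyms, which makes thymidylate, ran from 8.27 to 62.6 FPKM.

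The regulators of the G1/S step departed from the rest. Ccne1, a cyclin that drives entry into S phase, was, in endothelium, at 40.7, 69.1 and 54.4 FPKM in culture, against 10.3, 12.2 and 13.4 without added cells, 9.96, 11.8 and 11.2 with HSPC and 10.1, 9.03 and 5.13 in vivo. In stroma Ccne1 was at 66.6, 77.3 and 67.4 FPKM in culture, against 19.98, 19.9 and 19.4 without added cells, 9.28, 10.1 and 8.65 with HSPC and 67.3, 73.2 and 70.6 in vivo. Ccne1 was high in both culture and in vivo stroma, whose values overlapped, and low in all endothelial groups other than culture. Ccne2, its relative, was, in endothelium, at 66.8, 63.7 and 57.5 FPKM in culture, against 24.2, 26.97 and 46.6 without added cells, 34.99, 30.6 and 73.3 with HSPC and 20.9, 38.9 and 28.5 in vivo. In stroma Ccne2 was at 88.6, 70.3 and 73.2 FPKM in culture, against 17.7, 12.2 and 40.9 without added cells, 33.97, 17.2 and 26.9 with HSPC and 33.7, 35.2 and 31.1 in vivo. Replicate 3 stood above replicates 1 and 2 in 3 of the 4 co-culture groups, and those groups overlapped. E2f1, a factor that switches on replication genes, was, in endothelium, at 92.5, 47.2 and 31.9 FPKM in culture, against 34.4, 36.2 and 38.8 without added cells, 33.5, 37.8 and 37.01 with HSPC and 12.2, 12.9 and 11.8 in vivo. In stroma E2f1 was at 102, 122 and 123 FPKM in culture, against 82.2, 82.7 and 78.3 without added cells, 90.8, 103 and 104 with HSPC and 22.5, 25.1 and 25.3 in vivo. E2f1 was higher in stroma than in endothelium in each setting without overlap, and stroma in vivo held less of it than any other stromal group.

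**Figure D3:**
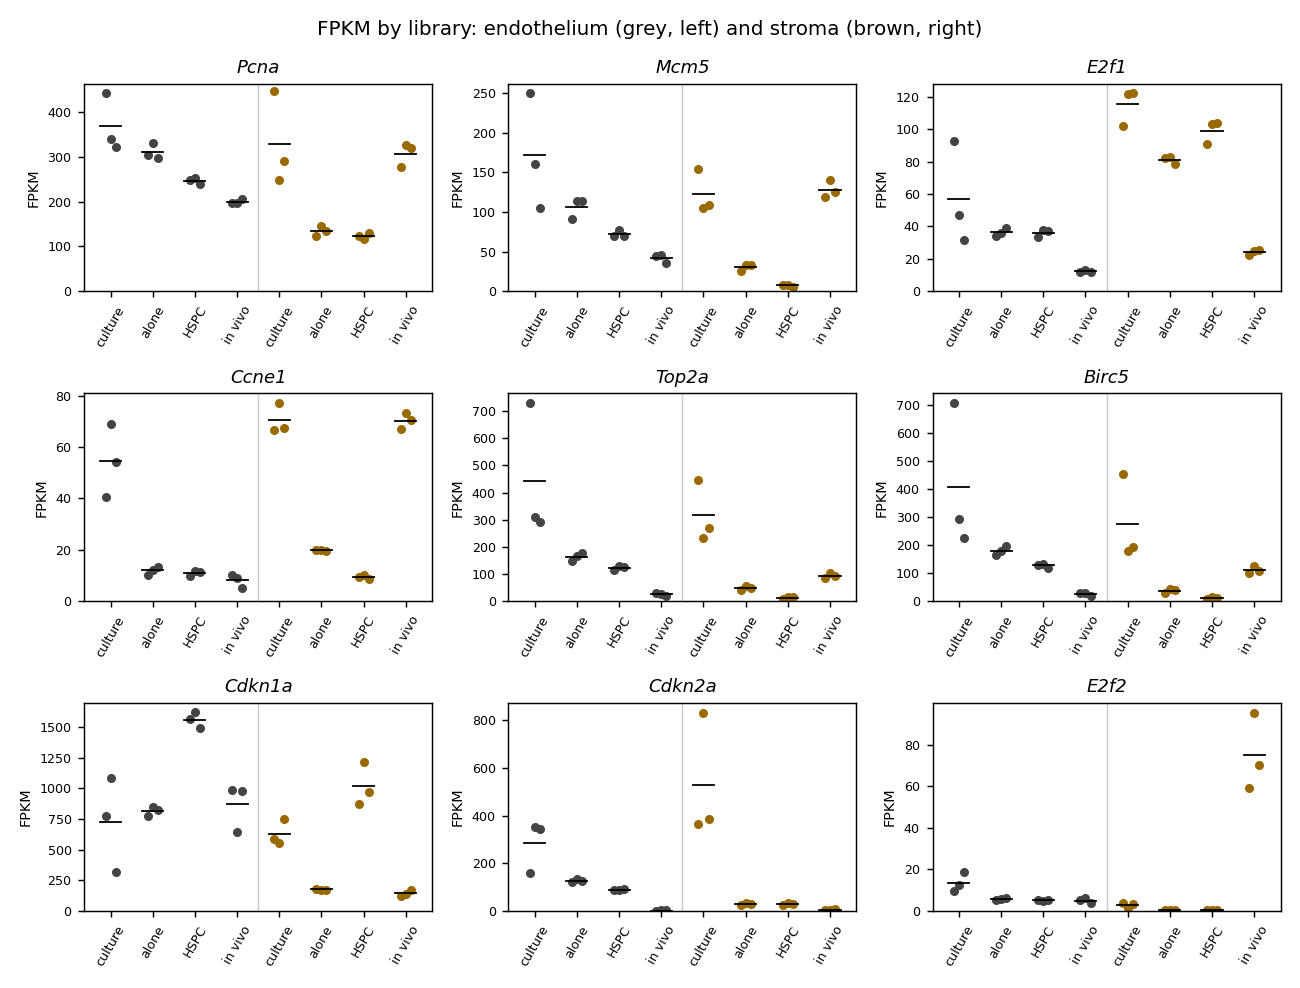
FPKM of 9 genes by library (points) with group means (lines), endothelium in grey and stroma in brown, with a linear axis for each gene. Pcna, Mcm5, Top2a and Birc5 had their lowest group mean in stroma with HSPC, E2f1 stayed high in stroma with HSPC (91 to 104 FPKM), and E2f2 was high in stroma in vivo (59 to 95 FPKM).

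Among the mitotic cyclins and regulators, Ccna2, a cyclin of S phase and G2, was, in endothelium, at 492, 274 and 246 FPKM in culture, against 95.6, 104 and 109.9 without added cells, 72.98, 82.8 and 82.8 with HSPC and 27.8, 31.5 and 19.6 in vivo. In stroma Ccna2 was at 447, 216 and 228 FPKM in culture, against 39.4, 54.4 and 46.3 without added cells, 9.49, 15.7 and 14.04 with HSPC and 109, 138 and 121 in vivo. No groups of a cell type overlapped for Ccna2. Foxm1, a factor that activates mitotic genes, was, in endothelium, at 190.0, 56.97 and 50.5 FPKM in culture, against 56.8, 62.1 and 64.2 without added cells, 38.1, 39.4 and 37.3 with HSPC and 10.9, 8.95 and 9.88 in vivo. In stroma Foxm1 was at 93.2, 90.4 and 92.99 FPKM in culture, against 20.3, 23.1 and 20.8 without added cells, 7.36, 7.66 and 8.56 with HSPC and 18.8, 19.6 and 21.6 in vivo. Replicate 1 of cultured endothelium held over 3 times the Foxm1 of its fellow libraries, and stroma alone overlapped stroma in vivo. Ccnb1, which with Cdk1 drives entry into mitosis, ran from 2.78 to 128 FPKM over the libraries, Ccnb2 from 6.28 to 324 FPKM and Cdk1 from 12.2 to 340.2 FPKM.

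Ube2c, an enzyme of the anaphase-promoting complex that tags cyclins for destruction, was, in endothelium, at 530.4, 304 and 241 FPKM in culture, against 124, 157 and 158 without added cells, 111, 120.2 and 115 with HSPC and 23.3, 20.4 and 12.6 in vivo. In stroma Ube2c was at 367, 228 and 196 FPKM in culture, against 23.8, 40.5 and 31.4 without added cells, 7.57, 15.03 and 12.1 with HSPC and 83.5, 96.1 and 79.4 in vivo. The order of the groups was that of Ccna2, without overlap in either cell type. Cdc20, which activates the same complex, ran from 5.64 to 265 FPKM.

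Promoters are shown for Cdc20, Plk1 and Ccnb1, which had the largest falls with HSPC in endothelium among the mitotic genes with a listed window. The windows are chr13:100786437-100786736 on the minus strand for Ccnb1, chr4:118437294-118437593 on the minus strand for Cdc20 and chr7:122159185-122159484 on the plus strand for Plk1, with matches in capitals.
Ccnb1: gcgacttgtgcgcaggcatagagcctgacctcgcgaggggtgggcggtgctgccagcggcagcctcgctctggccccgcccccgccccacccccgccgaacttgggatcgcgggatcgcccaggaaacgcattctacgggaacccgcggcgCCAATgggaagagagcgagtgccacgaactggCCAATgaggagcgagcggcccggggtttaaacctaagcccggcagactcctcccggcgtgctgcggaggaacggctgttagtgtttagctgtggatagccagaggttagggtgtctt
Cdc20: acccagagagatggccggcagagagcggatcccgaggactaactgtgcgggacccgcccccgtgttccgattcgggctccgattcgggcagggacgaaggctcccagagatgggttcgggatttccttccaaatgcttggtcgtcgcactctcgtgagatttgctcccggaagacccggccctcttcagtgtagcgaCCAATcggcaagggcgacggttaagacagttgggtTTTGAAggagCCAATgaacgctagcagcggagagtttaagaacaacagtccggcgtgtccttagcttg
Plk1: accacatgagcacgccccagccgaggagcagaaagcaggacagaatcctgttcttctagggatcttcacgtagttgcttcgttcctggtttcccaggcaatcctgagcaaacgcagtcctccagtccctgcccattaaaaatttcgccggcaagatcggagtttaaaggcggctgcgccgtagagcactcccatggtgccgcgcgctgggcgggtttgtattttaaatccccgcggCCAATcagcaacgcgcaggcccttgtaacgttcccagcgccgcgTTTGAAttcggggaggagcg

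Of the 17 windows of mitotic genes, 13 (76.5%) held CHR letters, 15 (88.2%) held CCAAT and 13 held both, against 19.2%, 37.4% and 7.52% of all windows. An E2F motif was in 1 of them (5.88%). Cdc20 held CHR letters 18 bases before the start between a pair of CCAAT boxes, and Plk1 held them 31 bases after it. These CHR letters were not in the window of Ccnb1, which held 2 CCAAT boxes.

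Plk1, a kinase that acts through mitosis, was, in endothelium, at 233, 113 and 88.2 FPKM in culture, against 41.6, 52.4 and 52.3 without added cells, 30.6, 32.4 and 34.2 with HSPC and 10.6, 10.1 and 5.97 in vivo. In stroma Plk1 was at 164, 88.3 and 92.4 FPKM in culture, against 17.3, 24.2 and 18.4 without added cells, 3.16, 7.04 and 5.21 with HSPC and 32.6, 38.8 and 34.5 in vivo. Stroma with HSPC held the lowest mean of Plk1, and no groups of a cell type overlapped. Aurkb, the kinase of the chromosomal passenger complex, was, in endothelium, at 131, 84.4 and 82.05 FPKM in culture, against 30.8, 36.1 and 37.6 without added cells, 29.04, 33.8 and 28.6 with HSPC and 11.9, 10.2 and 7.55 in vivo. In stroma Aurkb was at 118, 90.2 and 106 FPKM in culture, against 12.9, 17.8 and 16.02 without added cells, 3.95, 4.58 and 5.23 with HSPC and 35.1, 39.2 and 35.4 in vivo. For Aurkb, endothelium alone and with HSPC overlapped while stroma alone and with HSPC did not. Birc5, or survivin, a passenger complex subunit, was, in endothelium, at 706, 294 and 224 FPKM in culture, against 164, 179.7 and 196 without added cells, 129.7, 134 and 119 with HSPC and 29.5, 28.8 and 18.2 in vivo. In stroma Birc5 was at 453, 178 and 192 FPKM in culture, against 29.2, 41.6 and 39.97 without added cells, 8.93, 13.03 and 10.5 with HSPC and 101, 125 and 106 in vivo. Birc5 showed the same order as Plk1 without overlap. Aurka, a kinase of the spindle poles, ran from 4.02 to 180.4 FPKM.

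Bub1b encodes BubR1 of the spindle checkpoint, which delays anaphase until chromosomes are attached. It was, in endothelium, at 138, 84.6 and 73.5 FPKM in culture, against 32.7, 32.9 and 36.9 without added cells, 26.1, 28.3 and 25.2 with HSPC and 17.2, 17.3 and 13.1 in vivo. In stroma Bub1b was at 111, 78.2 and 88.04 FPKM in culture, against 15.8, 18.1 and 16.7 without added cells, 4.15, 6.14 and 5.77 with HSPC and 23.96, 29.5 and 28.9 in vivo. The groups of each cell type were separate for Bub1b, and its partner Bub1 ran from 2.28 to 152 FPKM. Cenpa, the histone that marks centromeres, was, in endothelium, at 319.8, 183 and 240.0 FPKM in culture, against 74.8, 75.6 and 87.7 without added cells, 60.2, 59.6 and 57.01 with HSPC and 31.6, 36.04 and 21.2 in vivo. In stroma Cenpa was at 298, 109 and 104 FPKM in culture, against 23.8, 28.2 and 30.6 without added cells, 8.42, 13.4 and 10.4 with HSPC and 80.1, 110.4 and 94.4 in vivo. Cultured and in vivo stroma overlapped for Cenpa. Cenpe, a kinesin of the kinetochore, was, in endothelium, at 112, 69.7 and 61.9 FPKM in culture, against 18.8, 19.3 and 22.02 without added cells, 14.5, 15.2 and 14.9 with HSPC and 3.20, 2.99 and 2.17 in vivo. In stroma Cenpe was at 86.2, 38.7 and 41.7 FPKM in culture, against 6.28, 9.06 and 7.04 without added cells, 1.97, 2.59 and 2.57 with HSPC and 8.77, 10.1 and 8.86 in vivo. Cenpe was among the lowest members in endothelium in vivo and in stroma with HSPC, and Cenpf, another kinetochore protein, ran from 1.44 to 81.7 FPKM.

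Kif20a, a kinesin of the dividing cell's midzone, was, in endothelium, at 297, 199 and 158 FPKM in culture, against 80.1, 79.7 and 86.2 without added cells, 46.6, 49.4 and 49.6 with HSPC and 39.7, 31.7 and 15.6 in vivo. In stroma Kif20a was at 276, 108 and 117 FPKM in culture, against 32.2, 52.01 and 36.1 without added cells, 20.2, 12.6 and 19.9 with HSPC and 45.6, 50.7 and 45.8 in vivo. For Kif20a stroma alone overlapped stroma in vivo. Tpx2, which activates Aurora A on the spindle, was, in endothelium, at 242, 158 and 126 FPKM in culture, against 55.3, 57.3 and 65.1 without added cells, 41.1, 43.5 and 42.8 with HSPC and 11.4, 10.2 and 7.85 in vivo. In stroma Tpx2 was at 235, 116 and 116 FPKM in culture, against 25.7, 33.1 and 29.6 without added cells, 17.1, 24.8 and 20.5 with HSPC and 22.9, 31.6 and 28.7 in vivo. In stroma Tpx2 was the mitotic gene that changed least with HSPC, and its values in vivo overlapped those of stroma alone and with HSPC. Nusap1, which bundles spindle microtubules, was, in endothelium, at 152, 111 and 132 FPKM in culture, against 29.8, 31.8 and 34.8 without added cells, 24.2, 26.02 and 22.8 with HSPC and 10.04, 9.36 and 7.59 in vivo. In stroma Nusap1 was at 128, 47.5 and 53.2 FPKM in culture, against 9.41, 12.8 and 12.5 without added cells, 3.70, 4.96 and 5.89 with HSPC and 46.8, 56.4 and 54.5 in vivo. Replicates 2 and 3 of cultured stroma lay at the level of stroma in vivo for Nusap1. Kif11, the motor that separates spindle poles, ran from 3.18 to 207 FPKM.

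Top2a, the topoisomerase that untangles chromosomes, was, in endothelium, at 729, 309 and 290.0 FPKM in culture, against 148, 168 and 177 without added cells, 115, 129.7 and 125 with HSPC and 28.4, 26.6 and 19.2 in vivo. In stroma Top2a was at 448, 234 and 270.1 FPKM in culture, against 41.6, 54.2 and 48.3 without added cells, 9.54, 16.02 and 14.2 with HSPC and 83.4, 104 and 92.01 in vivo. No groups of a cell type overlapped for Top2a, and it was the highest member in replicate 1 of cultured endothelium. Mki67, which encodes the Ki-67 protein on mitotic chromosomes, ran from 4.45 to 288 FPKM.

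Endothelium in vivo held lower levels of the whole set than endothelium in culture. All 46 genes fell, while 53.3% of the 14904 tested genes were called in either direction, 23.6% higher and 29.8% lower. The median difference in log2 level was -3.73 for the 22 mitotic genes and -1.73 for the 24 replication genes, beside -0.09 over all tested genes. Mitotic differences ran from -4.40 for Cenpe to -2.52 for Bub1b, and replication differences from -3.46 for Cdc45 to -0.62 for Mcm3. The 8 licensing genes had a median of -1.35, and the helicase activation genes ranged from -3.46 for Cdc45 to -1.89 for Gins1. Cdc45, at 212, 77.6 and 109 FPKM in culture and 10.5, 12.7 and 7.74 in vivo, differed by -3.46 (SE 0.32, limma adjusted p = 1.17e-05). Cenpe differed by -4.40 (SE 0.31, limma adjusted p = 2.26e-06). The smallest fall was that of Mcm3, at -0.62 (SE 0.21, limma adjusted p = 0.0299), and it is the member whose libraries overlapped between these groups. The 8 pan-hematopoietic markers summed to 70.0 to 88.5 FPKM in vivo and to 6.82 to 18.7 FPKM in culture, where 4 of the 8 were at 0 in every library, and their part in the result was not tested. Without replicate 1 of the culture 45 genes fell.

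Stroma in vivo differed from stroma in culture mainly in the mitotic genes. Of the mitotic genes 19 of 22 fell, and of the replication genes 7 of 24 fell and 1 rose, while 55.4% of all tested genes were called, 24% higher and 31.4% lower. The count of replication genes that fell thus lay near the share of all tested genes that were lower, and shows nothing particular to them. The median difference was -1.64 for mitotic and -0.32 for replication genes, beside -0.15 over all tested genes. Falls were largest for Tpx2, at -2.38 (SE 0.31, limma adjusted p = 1.11e-04), and Cenpe, at -2.37 (SE 0.31, limma adjusted p = 1.28e-04). The 3 mitotic genes that were not called were Ccnb2 at -0.64, Cenpa at -0.66 and Nusap1 at -0.38.

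None of the 8 licensing genes fell in stroma in vivo, and Cdc6 rose by 0.62 (SE 0.24, limma adjusted p = 0.0492). The rise of Cdc6 lay close to the threshold. It was not called with a pseudocount of 0.1 (adjusted p = 0.0595), without the 3 libraries that carry Xist (adjusted p = 0.0594), or without any single in vivo library of stroma, where limma gave adjusted p-values of 0.0727 to 0.146. Without replicate 1 of the stromal culture 2 members rose and 23 fell. Without replicate 1 of stroma in vivo 5 replication genes fell and none rose. With all libraries the replication genes that fell were E2f1, Gins2, Ccne2, Pole, Pola1, Rfc3 and Rrm1. E2f1 had the largest of these falls, at -2.20 (SE 0.30, limma adjusted p = 1.47e-04). Ccne1 lay at 66.6, 77.3 and 67.4 FPKM in culture and 67.3, 73.2 and 70.6 in vivo, with overlapping libraries and a difference of 0.00 (SE 0.24).

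Erythroid markers were high in the same in vivo stroma libraries. The 11 markers, Gata1 and the globins among them, summed to 38982 to 46587 FPKM, and all 11 had a mean of at least 1 FPKM. In cultured stroma they summed to 60.9 to 257 FPKM with 8 of the 11 at 0 in every library, and in endothelium in vivo to 1204 to 1902 FPKM. Pan-hematopoietic markers summed to 113 to 148 FPKM in stroma in vivo and granulocyte and monocyte markers to 1628 to 3526 FPKM. E2f2, an E2F factor known from blood cells, was at 3.66, 1.51 and 3.23 FPKM in cultured stroma and 59.1, 95.1 and 70.4 FPKM in stroma in vivo. E2f2 differed by 4.34 (SE 0.32, limma adjusted p = 1.71e-06). The part of these markers in the levels of the set in stroma in vivo was not tested.

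The step from culture to in vivo differed between the cell types. The interaction test, endothelial difference minus stromal difference, was called for 35 of the 46 genes, all with the lower value in endothelium, and for 33.5% of all tested genes (16.4% higher and 17.1% lower). They were 19 of 22 mitotic and 16 of 24 replication genes. The median interaction was -2.07 for mitotic and -1.50 for replication genes, beside -0.01 over all tested genes. Nusap1 had the lowest value, -3.34 (SE 0.44, limma adjusted p = 2.48e-04), followed among mitotic genes by Ccnb2 at -2.76. Cdc45 had the lowest of the replication genes, -2.74 (SE 0.45, limma adjusted p = 9.82e-04). Of the G1/S regulators, Ccne1 was called at -2.63 (SE 0.33, limma adjusted p = 1.87e-04), and E2f1 and Ccne2 were not, at 0.21 and 0.08. The 35 became 33 without replicate 1 of cultured endothelium and 41 without replicate 1 of cultured stroma.

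**Figure D4:**
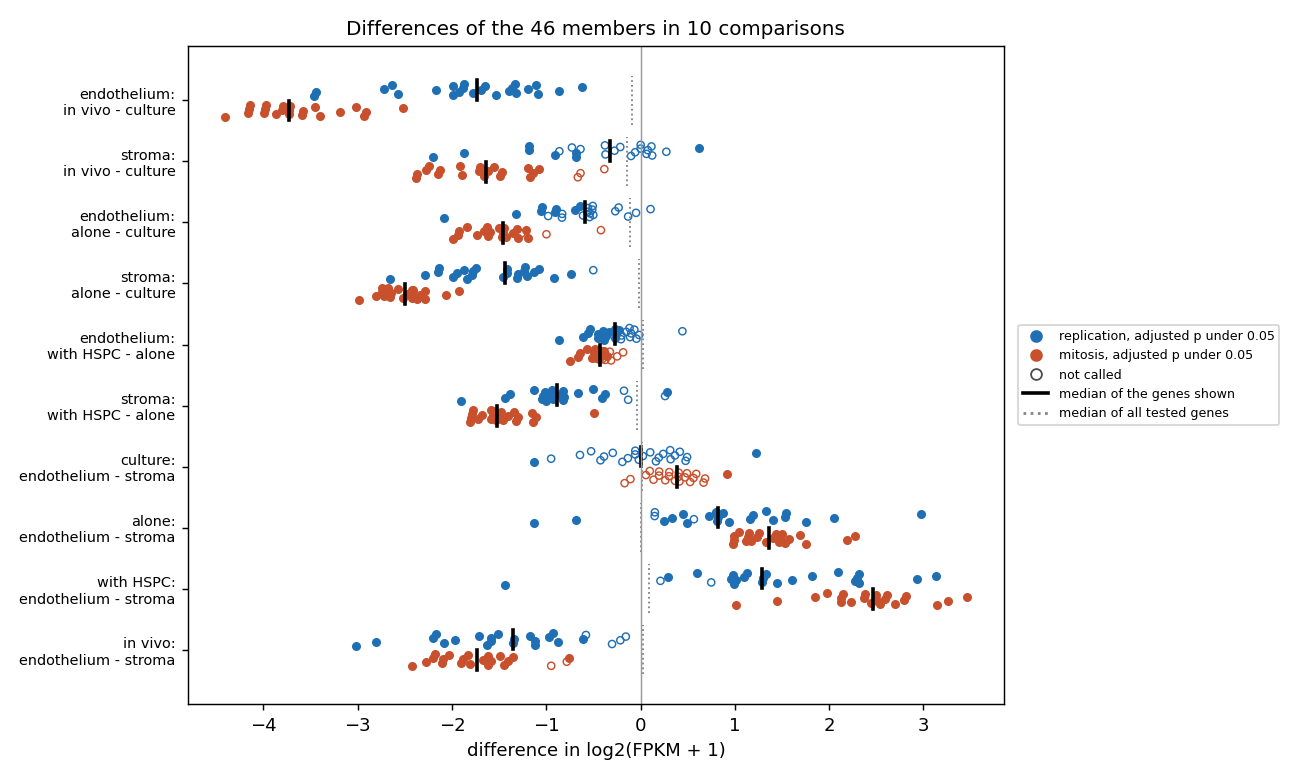
Difference in log2(FPKM + 1) of each of the 46 genes in 10 comparisons, replication in blue and mitosis in orange, filled where the adjusted p was under 0.05; thick bars are medians of the genes shown and dotted lines the median of all tested genes. The mitotic median lay farther from 0 than the replication median in every comparison, from -3.73 (endothelium in vivo against culture) to 2.47 (endothelium against stroma with HSPC).

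Cells of the co-culture series without added cells also held less of the set than the first cultures. In endothelium 27 of the 46 genes fell and none rose, beside 23.2% of the 14071 tested genes called, 8.78% higher and 14.4% lower. The 27 were 19 mitotic and 8 replication genes, with median differences of -1.46 and -0.58, beside -0.11 over all tested genes. Ccne1 had the largest fall, at -2.08 (SE 0.18, limma adjusted p = 6.53e-05), from 40.7, 69.1 and 54.4 FPKM to 10.3, 12.2 and 13.4. Nusap1 fell by 1.99 (SE 0.31, limma adjusted p = 0.00213). Cdc45 at -0.05 and Cdt1 at 0.11 were not called, and their libraries overlapped. Without replicate 1 of endothelium alone 18 genes fell and without replicate 2 of it 19, 5 of them replication genes in each case. Without replicate 3 of the culture 34 fell, 15 of them replication genes. Without the 3 libraries that carry Xist, which leaves 1 library of cultured endothelium that is assumed to vary like the other groups, 38 fell, 17 of them replication genes. The replication count thus moved more with the libraries than the mitotic count, which was 13 to 21 under the same settings.

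In stroma 45 of the 46 genes fell from culture to alone, beside 33.8% of tested genes called, 16% higher and 17.8% lower. Mitotic genes had a median of -2.50 and replication genes one of -1.44, beside -0.01 over all tested genes. Ube2c had the largest mitotic fall, at -2.99 (SE 0.32, limma adjusted p = 7.89e-05), and Rrm2 the largest replication fall, at -2.66 (SE 0.38, limma adjusted p = 4.77e-04). E2f1 was the exception at -0.50 (SE 0.29, limma adjusted p = 0.217), although its 3 libraries alone, at 82.2, 82.7 and 78.3 FPKM, all lay below those in culture. All 46 genes had separate groups in this comparison, and how many of all tested genes did was not counted. The groups also differed in their markers. The 8 stromal markers summed to 3661 to 10919 FPKM in cultured stroma and to 58391 to 64535 FPKM in stroma alone. Endothelial markers summed to 18.9 to 369 FPKM in cultured stroma and to 12.9 to 13.7 FPKM alone. The part of these marker differences in the fall was not tested.

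Adding HSPC was followed by lower levels of the set in both cell types, to a smaller extent in endothelium. In endothelium 30 of 46 genes fell and none rose, beside 48.6% of the 14017 tested genes called, 28.3% higher and 20.3% lower. They were 16 mitotic and 14 replication genes, with medians of -0.43 and -0.27, beside 0.02 over all tested genes. Cdc45 had the largest fall, at -0.86 (SE 0.09, limma adjusted p = 1.77e-05), with 112, 118 and 123 FPKM alone and 65.2, 67.5 and 60.8 FPKM with HSPC. Kif20a fell by 0.74 (SE 0.18, limma adjusted p = 0.00547), and Foxm1 fell by 0.66 (SE 0.07, limma adjusted p = 1.42e-05). Pcna, at 303, 331 and 297 FPKM alone and 247, 252 and 238 FPKM with HSPC, fell by 0.33 (SE 0.06, limma adjusted p = 0.00106). Rrm1, at -0.07, and E2f1, at -0.01, were not called and their groups overlapped. In 35 of the 46 genes all libraries with HSPC lay below all libraries alone, a count with no share over all genes to set beside it. The count of calls depended on the libraries entering the fit. With all 8 groups in the limma fit, where the spread of the cultures enters, 1 member was called, and the share of all tested genes called was 12%. Without replicate 3 of endothelium alone 14 members were called, without replicate 2 of it 20 (9 of them replication genes), without replicate 1 with HSPC 16, and without replicate 3 with HSPC 18.

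In stroma 42 of 46 genes fell with HSPC and 1 rose, beside 61% of tested genes called, 25.6% higher and 35.4% lower. All 22 mitotic genes fell, with a median of -1.52, and 20 of 24 replication genes fell, with a median of -0.89 over all 24, beside -0.04 over all tested genes. Mcm5, at 25.7, 33.7 and 32.8 FPKM alone and 8.26, 8.47 and 5.78 FPKM with HSPC, had the largest fall, at -1.91 (SE 0.14, limma adjusted p = 4.88e-07). Plk1, at 17.3, 24.2 and 18.4 and 3.16, 7.04 and 5.21 FPKM, fell by 1.81 (SE 0.20, limma adjusted p = 1.47e-05). Top2a fell by 1.80 (SE 0.15, limma adjusted p = 1.54e-06). For none of these did the libraries of the groups overlap. Tpx2 had the smallest mitotic fall, at -0.49 (SE 0.12, limma adjusted p = 0.00426).

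E2f1 was the member that rose in stroma with HSPC, by 0.28 (SE 0.07, limma adjusted p = 0.0027), from 82.2, 82.7 and 78.3 FPKM to 90.8, 103 and 104 FPKM without overlap. With all 8 groups in the limma fit that rise was not called (adjusted p = 0.417). The other G1/S regulators were split, with Ccne1 lower at -1.01 (SE 0.09, limma adjusted p = 3.18e-06) and Ccne2 not called at 0.26. Pcna at -0.13 and Rfc4 at -0.18 were not called either.

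Markers of blood cells were higher in the libraries with HSPC than in those without added cells. Pan-hematopoietic markers summed to 112 to 151 FPKM in endothelium with HSPC and to 6.20 to 8.18 FPKM alone, where 5 of the 8 were at 0 in every library. In stroma they summed to 25.2 to 34.5 FPKM with HSPC and to 0.64 to 1.37 FPKM alone, where 6 of the 8 were at 0. Granulocyte and monocyte markers summed to 1818 to 2073 FPKM in endothelium and to 706 to 924 FPKM in stroma with HSPC, against 56.8 to 63.0 and 4.81 to 6.64 FPKM without it. Erythroid markers summed to 338 to 467 FPKM in stroma with HSPC and to 164 to 165 FPKM alone. Only 3 of these 11 had a mean of at least 1 FPKM with HSPC, and 6 were at 0 in every library. Alone 2 reached that mean and 8 were at 0. Both cell types thus carried more of the pan-hematopoietic and of the granulocyte and monocyte markers with HSPC. The part of blood cell markers in the levels of the set was not tested.

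The step with HSPC differed between the cell types in 36 genes, beside 57% of tested genes called, 36% higher and 21.1% lower. For 35 the endothelial difference was the higher one, and for E2f1 it was the lower one. The 36 were 20 mitotic and 16 replication genes. The median interaction was 1.08 for mitotic and 0.54 for replication genes, beside 0.11 over all tested genes. Ccna2 had the highest value, 1.40 (SE 0.22, limma adjusted p = 2.75e-04), and Mcm5 the highest of the replication genes, 1.37 (SE 0.20, limma adjusted p = 1.49e-04). E2f1 was at -0.30 (SE 0.09, limma adjusted p = 0.0165). Tpx2 and Cdc45 fell in both cell types, with interactions of 0.02 (SE 0.17, limma adjusted p = 0.914) and -0.04 (SE 0.13, limma adjusted p = 0.838) that were not called. With all 8 groups in the fit 16 members were called, all with the higher endothelial difference, beside 14.8% of all tested genes.

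In the first cultures few members differed between the cell types beyond the spread of the libraries, which was wide there. Of the 46 genes 2 were higher in endothelium and 1 lower, beside 38.7% of all tested genes called, 20.1% higher and 18.6% lower. Median differences were 0.00 for replication and 0.38 for mitotic genes, beside 0.02 over all tested genes. Cdc45 was higher in endothelium by 1.23 (SE 0.32, limma adjusted p = 0.0113), and Nusap1 was higher by 0.92 (SE 0.31, limma adjusted p = 0.0403). E2f1 was lower at -1.13 (SE 0.30, limma adjusted p = 0.0125). Libraries of 43 genes overlapped between the cell types, and the share over all tested genes was not counted. Nusap1 was not called without any one of 10 of the 12 libraries, with adjusted p-values of 0.0519 to 0.15 by limma. The count rested on the culture libraries that stood apart. Without replicate 1 of stroma 13 genes were higher and 2 lower, and without replicate 1 of endothelium 1 was higher and 6 were lower. Without replicate 3 of endothelium 4 were higher and 1 lower. Leaving out the 3 libraries that carry Xist keeps replicate 1 as the only library of cultured endothelium, and E2f1 then stood at -0.27.

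In the co-culture series endothelium held more of the set than stroma. Alone, 41 genes were higher in endothelium and 2 lower, in a comparison that called 83.3% of all tested genes (42% higher and 41.3% lower). The medians were 1.36 for mitotic and 0.82 for replication genes, beside 0.00 over all tested genes. Cdc45 had the largest difference, 2.97 (SE 0.09, limma adjusted p = 3.18e-11), with 112, 118 and 123 FPKM in endothelium and 12.5, 14.9 and 15.2 in stroma. Birc5 had the largest of the mitotic genes, 2.27 (SE 0.14, limma adjusted p = 2.06e-08). The genes lower in endothelium were E2f1, at -1.13 (SE 0.07, limma adjusted p = 9.34e-09), and Ccne1, at -0.69 (SE 0.09, limma adjusted p = 2.80e-05).

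With HSPC, 43 genes were higher in endothelium and E2f1 lower, beside 85.1% of tested genes called (46.6% higher and 38.6% lower). The medians were 2.47 for mitotic and 1.29 for replication genes, beside 0.09 over all tested genes. Birc5 differed by 3.46 (SE 0.14, limma adjusted p = 3.79e-10) and Mcm5 by 3.13 (SE 0.14, limma adjusted p = 9.18e-10). All 22 mitotic genes had separate groups, and the share of all tested genes with separate groups was not counted. E2f1 was lower in endothelium at -1.43 (SE 0.07, limma adjusted p = 9.92e-10).

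In vivo the order was the reverse. Endothelium held less than stroma of 40 genes and more of none, beside 49.3% of tested genes called, 25% higher and 24.2% lower. The medians were -1.74 for mitotic and -1.35 for replication genes, beside 0.03 over all tested genes. Ccne1 had the largest difference, -3.02 (SE 0.24, limma adjusted p = 2.32e-06), with 10.1, 9.03 and 5.13 FPKM in endothelium and 67.3, 73.2 and 70.6 FPKM in stroma. Rrm2 differed by -2.81 (SE 0.40, limma adjusted p = 2.09e-04) and Nusap1 at -2.42 (SE 0.31, limma adjusted p = 9.28e-05). The 6 genes not called were Mcm3, Ccne2, Rfc3, Tyms, Kif20a and Foxm1. In 44 genes every endothelial library lay below every stromal one, and the share of all tested genes that did so was not counted. The erythroid markers given above separated the same groups, at 1204 to 1902 FPKM in endothelium and 38982 to 46587 FPKM in stroma, and their part in this result was not tested.

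Further genes of the same processes, taken from fixed lists of 36 other replication genes and 36 other mitotic genes, were counted in the same fits. In endothelium in vivo against culture 27 of the 36 replication genes fell and 2 rose, and 35 of the 36 mitotic genes fell and 1 rose. Of all tested genes 29.8% were lower and 23.6% higher there. Median differences were -1.28 for replication and -3.41 for mitosis. Anln, a protein of the cleavage furrow, fell by 4.96 (SE 0.42, limma adjusted p = 6.66e-06). Prc1, which bundles midzone microtubules, fell by 4.40 (SE 0.31, limma adjusted p = 1.96e-06). In stroma in vivo 11 of the replication genes fell and none rose, while 33 of the mitotic genes fell and 1 rose, with medians of -0.48 and -1.65. Of all tested genes 31.4% were lower and 24% higher, so the count of replication genes that fell lay near the share of all genes. With HSPC in stroma 25 replication genes fell and 3 rose, and 34 mitotic genes fell and none rose, with medians of -0.47 and -1.39. The shares of all tested genes were 35.4% lower and 25.6% higher. In endothelium with HSPC the counts were 12 lower and 7 higher for replication and 24 lower and none higher for mitosis, with medians of -0.05 and -0.40. Of all tested genes 20.3% were lower and 28.3% higher. The replication genes called in either direction lay near the 48.6% of all genes called. Timeless, a protein that protects the replication fork, rose with HSPC in endothelium by 0.82 (SE 0.06, limma adjusted p = 5.53e-07). In stroma Timeless fell by 1.21 (SE 0.06, limma adjusted p = 1.70e-08), and the interaction was 2.03 (SE 0.08, limma adjusted p = 1.40e-08). Timeless was at 70.7, 67.97 and 70.97 FPKM in endothelium alone and 121, 135 and 118 FPKM with HSPC.

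Of the 7 inhibitors of cyclin-dependent kinases 3 rose and 2 fell with HSPC in endothelium, and 2 rose and 2 fell in stroma, beside 48.6% and 61% of all tested genes called, so that the counts show nothing particular to the list. Cdkn1a, or p21, a target of p53, was at 769.9, 849.5 and 822 FPKM in endothelium alone and 1566, 1618 and 1493 FPKM with HSPC. In stroma it was at 176, 174 and 174 FPKM alone and 868, 1211 and 971 FPKM with HSPC. Neither pair of groups overlapped, and Cdkn1a rose by 0.94 (SE 0.09, limma adjusted p = 9.18e-06) in endothelium and by 2.52 (SE 0.09, limma adjusted p = 2.01e-09) in stroma. Cdkn1b, or p27, rose with HSPC in endothelium by 0.96 (SE 0.08, limma adjusted p = 1.73e-06) and in stroma by 0.30 (SE 0.08, limma adjusted p = 0.00575). Cdkn2c, or p18, fell by 0.80 (SE 0.07, limma adjusted p = 1.75e-06) with HSPC in stroma and was at -0.10 in endothelium, not called. Cdkn1c, or p57, known from quiescent cells, fell by 1.90 (SE 0.27, limma adjusted p = 1.54e-04) in endothelium and fell by 0.76 (SE 0.27, limma adjusted p = 0.0301) in stroma.

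Cdkn2a, which encodes p16 and p19Arf, known to rise in long-term culture, was at 286 ± 109.8 FPKM (SD, n = 3) in cultured endothelium and 1.47 ± 1.28 FPKM in vivo. It was at 527 ± 263 FPKM in cultured stroma and 4.35 ± 2.41 FPKM in vivo. In vivo against culture Cdkn2a fell by 6.96 (SE 0.54, limma adjusted p = 4.14e-06) in endothelium and fell by 6.61 (SE 0.54, limma adjusted p = 4.25e-06) in stroma. From culture to alone it fell by 4.03 (SE 0.35, limma adjusted p = 1.98e-05) in stroma and fell by 1.08 (SE 0.35, limma adjusted p = 0.048) in endothelium. Cdkn2b, or p15, was at 284 ± 2.93 FPKM in stroma alone against 23.04 ± 1.65 FPKM in endothelium alone, a difference of -3.57 (SE 0.08, limma adjusted p = 1.03e-12). Cdkn1c was at 296 ± 14.01 FPKM in endothelium in vivo and 88.9 ± 6.94 FPKM in stroma in vivo. In cultured endothelium Cdkn1c was at 7.29, 8.11 and 286 FPKM, a wide spread. Cdkn1c rose in vivo by 3.41 (SE 1.08, limma adjusted p = 0.0217) in endothelium and by 6.15 (SE 1.08, limma adjusted p = 8.33e-04) in stroma. Cdkn2d, or p19Ink4d, rose with HSPC in endothelium by 0.36 (SE 0.10, limma adjusted p = 0.0129) and was at 0.04 in stroma, not called.

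Of the 17 E2F, pocket protein and MuvB genes, 8 fell and 3 rose in stroma with HSPC, where 61% of all tested genes were called, and 6 fell and 2 rose in endothelium, where 48.6% were. The counts lay near these shares. In stroma E2f7 fell by 1.43 (SE 0.15, limma adjusted p = 9.61e-06) and E2f8 fell by 0.94 (SE 0.13, limma adjusted p = 5.70e-05), both repressors of the E2F program. Mybl2, which encodes B-Myb, fell by 0.74 (SE 0.14, limma adjusted p = 6.43e-04) there. In stroma in vivo against culture E2f2 and Tfdp2, an E2F partner, rose, Tfdp2 by 2.44 (SE 0.23, limma adjusted p = 1.17e-05). E2f7 fell by 3.18 (SE 0.23, limma adjusted p = 1.48e-06).

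Of 9 G1 cyclins, kinases and Myc genes, 6 fell and 1 rose in stroma with HSPC, and 4 fell and 1 rose in endothelium, beside 61% and 48.6% of all tested genes called, so that these short counts show nothing particular to the list. Ccnd1, the cyclin that answers growth factors, was at 2232, 2339 and 1981 FPKM in cultured stroma and 276, 271 and 257 FPKM in stroma alone, and fell by 3.02 (SE 0.60, limma adjusted p = 0.00367). With HSPC Ccnd1 fell by 0.55 (SE 0.07, limma adjusted p = 4.81e-05) in endothelium and fell by 0.76 (SE 0.07, limma adjusted p = 2.33e-06) in stroma. Myc, a growth regulator, rose with HSPC in stroma by 0.97 (SE 0.09, limma adjusted p = 2.81e-06). In endothelium Myc fell by 1.04 (SE 0.09, limma adjusted p = 2.49e-06), and the interaction test gave -2.01 (SE 0.13, limma adjusted p = 2.90e-07). Of 11 p53 targets other than Cdkn1a, 8 rose and none fell in stroma with HSPC, beside 25.6% of all tested genes higher. In endothelium 2 rose and none fell, beside 28.3% higher. Btg2, an antiproliferative factor, rose in stroma by 1.78 (SE 0.07, limma adjusted p = 4.97e-09) and Gadd45a, a stress protein, by 1.58 (SE 0.15, limma adjusted p = 3.19e-06).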

How the data were processed

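PolyA RNA had been harvested with Trizol and sequenced as paired ends after TruSeq preparation, per the labels' protocols. The values are FPKM per gene symbol to 2 decimals, which the authors deposited as 1 column per library. The submitters' processing notes name TopHat, Cufflinks and the mouse build mm9, with no versions. Whether the FPKM were scaled further is not given in the sources used here. Depth is unknown, since no counts were used. Steps of single reads were looked for in low values, without a reference for their size, so that check cannot show their absence. In pairs of libraries the fullest of 100 bins of ratios held 3.23% to 8.60% of the low values. Error is therefore measured by how far the 3 libraries in a group lie apart. Reads shared with pseudogene copies of a member could not be checked in gene-level values.

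Groups and replicate numbers came from the titles. On log2(FPKM + 1) values, limma 3.58.1 under R 4.3.3 was run in 3 fits. Each, moderated by eBayes with the mean level as trend, covered 4 groups or 12 libraries apiece. The first joined culture with in vivo, the second joined the co-culture groups, and the third joined culture with the co-culture groups without HSPC. A gene entered a fit if 3 or more of its libraries reached 1 FPKM, and two-sided p-values were adjusted over all genes entered (Benjamini-Hochberg). The 12 comparisons share groups, and so are not independent of each other. Overlap of libraries between groups was counted for the members only, so those counts have no share over all genes beside them. The members and lists were chosen with earlier results of these data known. Every library's value is given for 26 members, those with the largest or the smallest signed difference of their kind (replication or mitosis) in any comparison and the member of each role with the highest mean FPKM. From each further list up to 4 called genes with the largest change could be named, and all inhibitors of cyclin-dependent kinases.

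The alternatives tried were 0.1 as pseudocount, filtering at 5 FPKM or not at all, scaling by trimmed means or quantiles, all 8 groups or only those compared in the fit, the replicate block, each library left out in turn, and culture without the 3 libraries that carry Xist. Without the Xist libraries replicate 1 is the only library of cultured endothelium. Fits were also run on simulated data of independent noise with 200 genes changed, though not for the interactions. Shifts shared by many genes were not simulated, so that run does not bear on them. Promoters came from RefSeq tables of GRCm38.p6, and no coordinates were taken from mm9. Python 3.11.15 with pandas 2.3.3 and matplotlib 3.10.9 made the summaries and figures.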

Additional observations from a re-analysis of the deposited data

Results flagged for a closer look

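The fall of the set from culture to in vivo differed between endothelium and stroma by the interaction test in 35 members. Among those described, the interaction in log2 level was -2.74 (SE 0.45, limma adjusted p = 9.82e-04) for Cdc45 and -3.34 (SE 0.44, limma adjusted p = 2.48e-04) for Nusap1. Stroma in vivo also carried the erythroid markers at 38982 to 46587 FPKM in sum, and their part in the difference was not tested.

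The response to HSPC differed between the cell types by the interaction test in 36 members. The interaction was 1.37 (SE 0.20, limma adjusted p = 1.49e-04) for Mcm5 and 1.40 (SE 0.22, limma adjusted p = 2.75e-04) for Ccna2, whose falls were larger in stroma. It was -0.30 (SE 0.09, limma adjusted p = 0.0165) for E2f1, which rose in stroma and was not called in endothelium. Libraries with HSPC carried pan-hematopoietic markers at 112 to 151 FPKM in endothelium and 25.2 to 34.5 FPKM in stroma, and their part was not tested.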

How the results depend on the processing

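The comparison of endothelium with stroma in culture depended on the processing. Its 3 called members became 5 with quantile normalization (2 higher, 3 lower) and 8 with all 8 groups in the fit. They became 0 by limma with only the groups compared, where 2 members had an unadjusted p under 0.05. Leaving out a library gave 2 to 15, with 7 (1 higher, 6 lower) without replicate 1 of endothelium. The 30 members that fell in endothelium with HSPC became 1 with all 8 groups in the fit, where the share of all tested genes called went from 48.6% to 12%, and 14 to 33 when a library was left out. The 36 interactions with HSPC became 16 with all 8 groups, where that share went from 57% to 14.8%. Endothelium alone against culture gave 18 to 34 calls, beside 27, when a library was left out, and 38 with all 8 groups. Its 8 replication genes became 5 to 15 when a library was left out and 17 with all 8 groups. The 8 replication genes called for stroma in vivo against culture became 5 without replicate 1 of stroma in vivo. For Foxm1 the cultures differed by 1.04 in favour of endothelium without the Xist libraries, against -0.17 with them, and the interaction of E2f1 with culture was -0.66 against 0.21. Without those libraries cultured endothelium is replicate 1 alone, at 190.0 FPKM of Foxm1 against 56.97 and 50.5 in replicates 2 and 3. For E2f1 replicate 1 was at 92.5 FPKM, against 47.2 and 31.9, so both values rest on that library. Why replicate 1 stood apart, and the cause of the other changes, was not tested. In the other 8 comparisons the count over all 46 members stayed within 1.5 times its value under the alternatives run.

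Same-numbered libraries did not clearly deviate together (in no comparison did all 3 pairs correlate over 0.1), so the numbers were not used as pairs. With 3 libraries per group this check cannot exclude a weak pairing. The replicate block gave 34 members for HSPC in endothelium, 46 for endothelium against stroma with HSPC, 25 for endothelium alone against culture and 36 for the interaction of culture. Over the 552 tests of members it ended 2 calls and added 7. Trimmed-mean scaling moved the median of all genes from -0.15 to 0.05 for stroma in vivo against culture and from -0.11 to 0 for endothelium alone against culture, and no called member changed sign. Depth is unknown, and small changes of the lowest members, such as Cenpf and Mcm10 with lowest levels of 1.44 and 2.11 FPKM, are the least certain.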

Other observations

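Between the cell types in culture, 1 of the 36 other mitotic genes, 3 of the 36 other replication genes, 2 of the 7 inhibitors of cyclin-dependent kinases, 4 of the 11 p53 targets, 4 of the 17 E2F, pocket protein and MuvB genes and 6 of the 9 G1 cyclins, kinases and Myc genes were called, beside 38.7% of all tested genes. A few of those called, picked after their values were seen, follow. Mycn, a Myc relative, was higher in endothelium by 3.17 (SE 0.50, limma adjusted p = 6.75e-04) and Ccnd1 was higher in stroma, with an endothelial difference of -2.16 (SE 0.61, limma adjusted p = 0.0174). Plk2, a p53 target, was higher in endothelium by 3.71 (SE 0.36, limma adjusted p = 2.65e-05).

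Pttg1, or securin, which was picked after its values were seen, rose in vivo against culture by 0.44 (SE 0.15, limma adjusted p = 0.0281) in endothelium and by 0.52 (SE 0.15, limma adjusted p = 0.0123) in stroma. It is known as the inhibitor of the enzyme that parts sister chromatids, and in each cell type it was the only called riser among the 36 other mitotic genes.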
